A study of Mus musculus with 2 samples.

Results

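The Vmn1r genes encode the vomeronasal type 1 receptors. They were taken as the protein-coding genes of the GENCODE vM21 annotation (mouse build GRCm38) whose symbol starts with Vmn1r. This rule found 209 genes of the 21938 protein-coding genes on the chromosomes. Chromosome 7 carried 103 of them, chromosome 6 carried 51, chromosome 13 carried 36 and chromosome 17 carried 14. Chromosome 4 held 2, and chromosomes 1, 18 and X held 1 each. Vmn1r239-ps on the X chromosome and Vmn1r207-ps on chromosome 13 were annotated as protein-coding although their symbols mark pseudogenes, and the symbol Vmn1r216 stood for a pair of gene identifiers.

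Open chromatin was mapped by ATAC-seq, in which a transposase inserts sequencing adapters into accessible DNA. The cells were LβT2 cells at passage 21, an immortalized mouse line derived from pituitary gonadotropes, the cells that secrete the gonadotropins LH and FSH. Both samples received 4 pulses of 2 nM gonadotropin-releasing hormone (GnRH), given every 2 h over 6 h and 45 min, and were harvested 45 min after the last pulse. The 2 samples are replicates of this single condition, with no untreated sample among those analysed here, so the values describe GnRH-treated LβT2 cells and carry no test between conditions. LβT2 is 1 cell line, and the study describes its samples and libraries as independent. Nothing in the labels says that they came from separate cultures, so the spread between them may be technical.

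V1R proteins are G protein-coupled receptors of the sensory neurons in the apical layer of the vomeronasal organ, where they detect pheromones and other small chemical signals. Each such neuron expresses a single receptor gene or very few, and the signal passes through the G protein subunits Gnai2 and Gng8 to the cation channel Trpc2. The genes arose by repeated local duplication, lie in tandem clusters and have their coding sequence in a single exon. The family is known best from the nose.

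Sequences show how the annotated starts of these genes differ, and 3 sets are printed here with the dinucleotide CG in capitals. The first is the upstream start of Vmn1r4, the member with the strongest promoter peak in both replicates. It is the 30 bases before the first annotated start, at chr6:56923985-56924014 of GRCm38 on the plus strand, and it holds 3 CpG dinucleotides and 66.7% G and C.
Vmn1r4 upstream start: gtcCGgaatccCGcccttatagtgggggCG
The second lies in front of the coding exon of the same gene, at chr6:56956263-56956460 on the plus strand, inside an intron of the longest transcript. Its 198 bases hold 27.8% G and C and 0 CpG dinucleotides.
Vmn1r4 coding exon: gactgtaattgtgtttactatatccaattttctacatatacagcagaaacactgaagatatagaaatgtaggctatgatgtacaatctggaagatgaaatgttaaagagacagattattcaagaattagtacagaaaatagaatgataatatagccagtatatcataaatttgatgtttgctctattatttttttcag
The third is the sequence that 5 members of the chromosome 7 cluster share base for base, and it is shown because a read from it fits all of them. It is the 250 bases before the RefSeq start of Vmn1r111 (chr7:20703217-20703466), Vmn1r118 (chr7:20912348-20912597), Vmn1r131 (chr7:21546091-21546340), Vmn1r138 (chr7:22028898-22029147) and Vmn1r166 (chr7:23251683-23251932), each on the minus strand. It holds 34.0% G and C and 1 CpG dinucleotide. These 5 genes are annotated as starting at their coding start, so their transcription may begin elsewhere.
Shared start: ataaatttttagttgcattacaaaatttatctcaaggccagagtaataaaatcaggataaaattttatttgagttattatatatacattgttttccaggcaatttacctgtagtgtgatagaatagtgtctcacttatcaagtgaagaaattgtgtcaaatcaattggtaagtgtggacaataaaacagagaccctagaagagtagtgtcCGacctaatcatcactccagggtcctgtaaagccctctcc

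The promoter of a gene was the sequence up to 1 kb before or after each annotated transcription start site (TSS), and a promoter peak as a peak that overlaps it by at least 1 bp. In 55 members every annotated transcript starts at the coding start, so the true start may lie outside the promoter as taken here. Of these 55, 0 and 1 had a promoter peak in the replicates, against 19.1% and 21.4% of 912 other such genes. In replicate 1, 1 of 209 Vmn1r genes (0.478%) had a promoter peak, against 32.9% of all protein-coding genes. In replicate 2, 4 of 209 (1.91%) had one, against 45.0%. The mean over the replicates was 1.20% ± 1.01 (SD, n = 2) for Vmn1r genes and 38.9% ± 8.58 (SD, n = 2) for all protein-coding genes, so the family lay below the other genes in each replicate by more than the replicates differed.

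Inside gene bodies the contrast was of the same kind. A peak summit, the position of highest signal in a peak, lay in the body of 5 Vmn1r genes (2.39%) in replicate 1, against 32.1% of all protein-coding genes. In replicate 2 it lay in 7 (3.35%), against 40.3%. The means were 2.87% ± 0.677 (SD, n = 2) for the family and 36.2% ± 5.76 (SD, n = 2) for all coding genes. Altogether 198 of the 209 members had neither a promoter peak nor a body summit in either replicate.

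**Figure D1:**
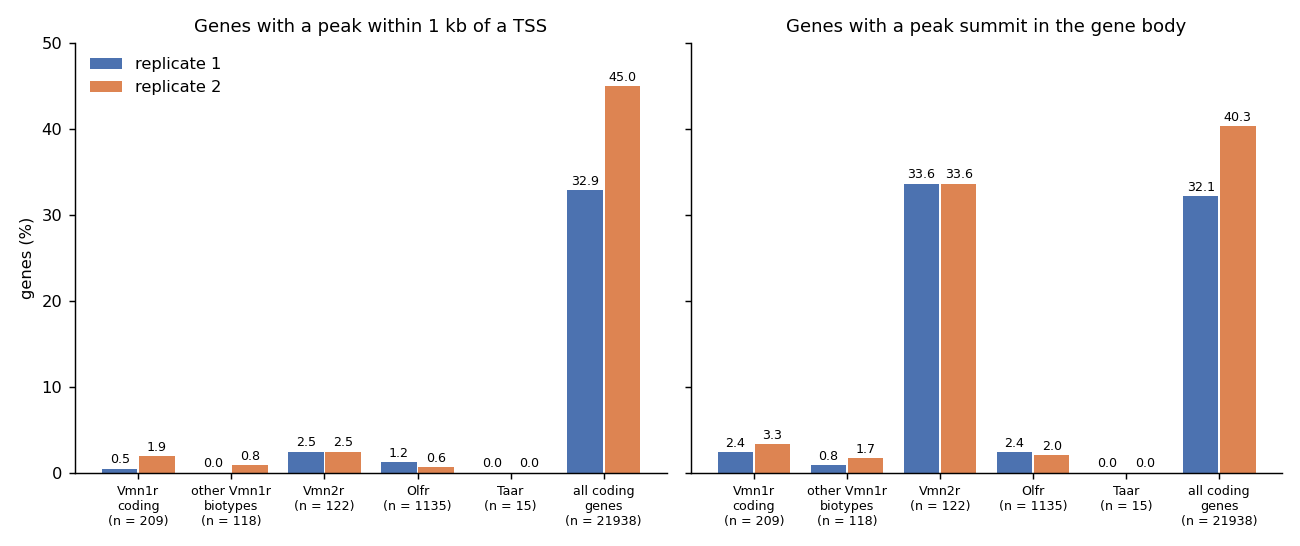
Bars give the percentage of genes with a promoter peak (left) and with a peak summit in the gene body (right) in each replicate, for Vmn1r coding genes, Vmn1r genes of other biotypes, the Vmn2r, Olfr and Taar receptor families, and all protein-coding genes, with the number of genes under each name. The Vmn1r bars reach at most 1.91% on the left and 3.35% on the right, and the Vmn2r body share of 33.6% in each replicate lies near that of all coding genes in replicate 1 (32.1%) and below it in replicate 2 (40.3%).

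Vmn1r genes are short, with a median length of 6796 bp against 17425 bp for all coding genes, and 65 of them have 1 exon only. Among the 62 members under 2 kb, 0 had a body summit in replicate 1 and 2 (3.23%) in replicate 2, against 9.50% and 12.7% of other coding genes of that length. Among the 94 members of 2 to 10 kb the counts were 0 and 2 (2.13%), against 16.2% and 22.6%. The 53 members of 10 kb or more included 5 (9.43%) and 3 (5.66%), against 41.9% and 51.5%. The family stayed below the other genes in each length class and replicate.

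Per unit of sequence, Vmn1r bodies held 4.48 summits per Mb in replicate 1 and 5.12 in replicate 2. All coding gene bodies held 17.5 and 21.2. If the summits of each chromosome had been spread evenly along it, 34.1 and 38.2 would have fallen in Vmn1r bodies, where 7 and 8 were found. The same reckoning gave 15.2 and 17.1 summits within 1 kb of a Vmn1r start, where 1 and 4 were found.

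Other chemoreceptor families showed a like shortage of promoter peaks. The Vmn2r genes, which encode receptors of the basal vomeronasal layer, had promoter peaks at 3 of 122 genes (2.46%) in each replicate. The Olfr genes, the odorant receptors of the main olfactory epithelium, had them at 1.23% and 0.617% of 1135 genes. The 15 Taar genes, which encode trace amine receptors, had 0 in both. Of 118 Vmn1r genes of other biotypes, all of them pseudogenes, 0 and 1 had a promoter peak. In gene bodies the Olfr genes were like the Vmn1r genes. A summit lay in the body of 2.38% and 2.03% of them, at 6.13 and 5.87 summits per Mb. Taar bodies held 0 summits in both replicates. The Vmn2r family stood apart, since 41 of 122 genes (33.6%) held a summit in each replicate. Vmn2r genes are longer, with a median of 27025 bp, and their bodies held 24.6 and 19.7 summits per Mb against 4.48 and 5.12 in Vmn1r bodies.

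All member peaks belonged to 11 genes, and Vmn1r4 had the strongest. Vmn1r4 lies at chr6:56924015-56958100 on the plus strand and is the first gene of the chromosome 6 cluster that runs to Vmn1r31. Its promoter peak spanned chr6:56923547-56924512 in replicate 1 and chr6:56923468-56924565 in replicate 2. The peak held 25 tags (extended reads that cover the summit) and a fold enrichment of 6.42 in replicate 1, and 46 tags and a fold of 10.4 in replicate 2. Its −log10 q value, the caller's measure of confidence, was 11.95 and 31.5. Of the coding genes with a promoter peak, 71.5% had a weaker best peak than Vmn1r4 in replicate 1 and 82.8% in replicate 2, so this was a strong promoter peak by the standard of all genes.

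The Vmn1r4 peak lay where a second gene begins. Nt5c3, which encodes a cytosolic nucleotidase that acts on pyrimidine nucleotides, starts 83 bp away on the opposite strand and is transcribed in the other direction. The 30 bases printed above lie between the starts of the pair. The summit was 130 bp downstream of the first Vmn1r4 start and 213 bp from the Nt5c3 start in replicate 1, and 117 bp and 200 bp in replicate 2. The coding exon of Vmn1r4 begins 32.5 kb farther on, and 2 of the 4 annotated Vmn1r4 starts had a promoter peak, both of them at the shared site. Which of the genes the peak belongs to cannot be told apart here. Vmn1r4 was the only member with another coding gene's start within 1 kb. The next was Vmn1r143, with a start at 11887 bp, and the median over members was 112 kb.

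**Figure D2:**
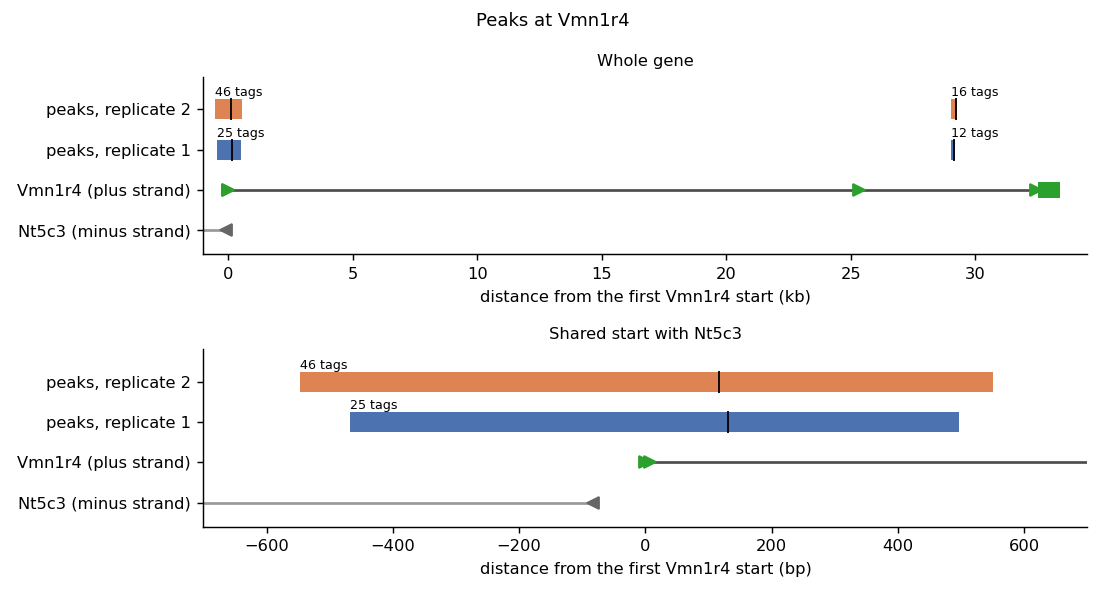
Peaks of both replicates (bars, with the summit as a black line and the tags at the summit above) are drawn by distance from the first Vmn1r4 start, in kb for the whole gene (top) and in bp around the shared start (bottom). Arrowheads mark annotated starts and the green box the coding sequence. The strong peaks of 25 and 46 tags cover the starts of both Vmn1r4 and Nt5c3, and the coding exon 32.5 kb away has no peak.

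Vmn1r4 also held a weak summit 3318 bp upstream of its last start in replicate 1 (12 tags) and 3239 bp upstream of it in replicate 2 (16 tags). The peaks overlapped, and the 50 bp at their summits occur at 6579 and 11 places of the genome. Vmn1r139, at chr7:22069057-22097907 on the plus strand, was the only other member with a body summit in both replicates. Its summits lay at different places, 4841 bp downstream of a start in replicate 1 and 10413 bp upstream of one in replicate 2, with 12 and 13 tags, and neither overlapped a peak of the other replicate.

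In replicate 1 alone, body summits were found in Vmn1r79 (13 tags), Vmn1r86 (11 and 14 tags) and Vmn1r88 (10 tags). In replicate 2 alone, promoter peaks were found at Vmn1r3 (12 tags, 614 bp downstream of the start), Vmn1r7 (13 tags, 322 bp upstream) and Vmn1r104 (12 tags, 379 bp downstream), and the first and last of these also counted as body summits. Vmn1r5 (12 tags), Vmn1r12 (13 tags) and Vmn1r83 (13 tags) had body summits in replicate 2. Each of these peaks had at most 14 tags. The lowest that was called was 10 tags in replicate 1 and 11 in replicate 2. Over all peaks the median was 14 and 16. Apart from the peak shared with Nt5c3, the member peaks held 10 to 14 tags in replicate 1 and 12 to 16 in replicate 2.

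The 50 bp centred on each summit were looked up on both strands of the whole genome, and a summit was called multi-copy where they occurred more than once. Of the 7 member peaks of replicate 1, 6 were multi-copy, and so were 8 of the 9 of replicate 2. The single-copy exception in each replicate was the Vmn1r4 peak at the Nt5c3 start. Over 200 bp around the summit, most were single-copy, since 1 of the 7 and 3 of the 9 were multi-copy (Vmn1r139 in both replicates, Vmn1r3 and Vmn1r104 in replicate 2). The Vmn1r104 summit shows what this means for a gene family. Its 50 bp, at chr7:20534191-20534240 on the plus strand in the coding exon, are printed here because they occur at 20 places, each inside a different Vmn1r gene.
Vmn1r104 summit: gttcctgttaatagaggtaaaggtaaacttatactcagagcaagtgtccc
The members that hold it include Vmn1r95, Vmn1r100, Vmn1r152 and Vmn1r165, and Vmn1r104 was the only one of the 20 with a promoter peak. Vmn1r152 also has the same 300 bases as Vmn1r104 around its RefSeq start and had no peak. The Vmn1r3 summit occurs at 6 places, of which 4 are in members (Vmn1r2, Vmn1r3, Vmn1r79 and Vmn1r238). How the authors placed reads that fit several positions is not given in the sources used here, and its part in these calls was not tested.

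Promoter sequence set Vmn1r genes apart from coding genes as a whole, but not from the other chemoreceptor families. Over 250 bases before to 50 after the most upstream start, the median G and C content was 38% in the family and 55.0% over all coding genes. The CpG observed/expected ratio, which compares the CpG dinucleotides with the number the base composition would give, had a median of 0.094 against 0.525. Median G and C content was 38.3% in Vmn2r, 37.7% in Olfr and 37.3% in Taar genes. Their median ratios were 0.090, 0.088 and 0.173. No CpG at all was present in 64 of the 209 sequences (30.6%). Vmn1r4 was the exception, with 42 CpG dinucleotides, a ratio of 1.03 and 73.7% G and C, and was the only member with a ratio of 0.6 or more.

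Low CpG content went with fewer promoter peaks in other genes too, so members were set beside other genes of the same class. Among the 152 members with a ratio under 0.2, 0 had a promoter peak in replicate 1 and 2 in replicate 2. Of 5097 other coding genes in that class, 11.9% and 14.7% had one. Among the 52 members with a ratio of 0.2 to 0.4 the counts were 0 and 1, against 17.1% and 22.8% of 3824 others. The 4 members of the next class had 0 in both. At a ratio of 0.6 or more, where 51.3% and 70.9% of other genes had a peak, the class held Vmn1r4 alone.

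**Figure D3:**
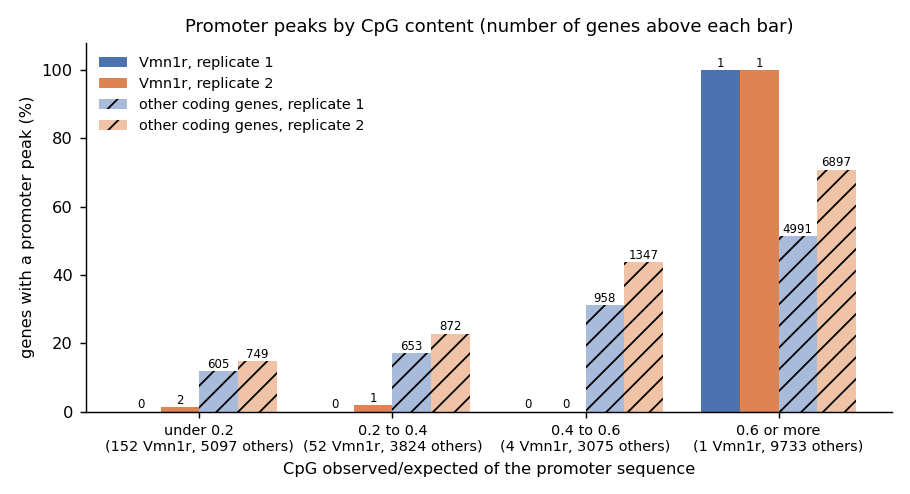
Bars give the percentage of genes with a promoter peak in each class of CpG observed/expected ratio, for Vmn1r genes (solid) and other coding genes (hatched) in both replicates, with the number of genes above each bar. The other genes climb from 11.9% and 14.7% in the lowest class to 51.3% and 70.9% in the highest, while the Vmn1r counts stay at 0 to 2 below a ratio of 0.6. The last Vmn1r pair of bars is Vmn1r4 alone.

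Repeated promoter sequence was common in the family. In 61 members (29.2%) over 50% of the 50 bp windows of the promoter were multi-copy, against 5.40% of all coding genes. The same held for 23.8% of Vmn2r genes, 1.15% of Olfr genes and 0 of 15 Taar genes. These 61 members had 0 promoter peaks in replicate 1 and 3 in replicate 2 (Vmn1r3, Vmn1r7 and Vmn1r104), against 37.1% and 39.3% of other genes of that kind. The 16 members with no multi-copy window had 0 promoter peaks in both replicates. Of 8770 other coding genes with no such window, 31.8% and 44.2% had one. Of 3097 others that also had a CpG ratio under 0.4, as all of these 16 members had, 9.36% and 13.8% had one. With 16 genes, the counts of 0 do not set these members apart from that class. The 132 members with up to 50% multi-copy windows had 1 and 1, which was Vmn1r4, against 33.8% and 46.9% of others.

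The RefSeq promoter table (GRCm38.p6) held 183 members by symbol, all on the chromosome and strand of the GENCODE gene. In it, 13 groups with 32 members shared all 300 bases, the largest being the group of 5 printed above. These 5 had no promoter peak or body summit in either replicate. Between 97.5% and 100% of their promoter windows were multi-copy, and how reads that fit several places were handled is not given. The letters TATAAA were present on either strand in 44.3% of the 183 windows and in 12.9% of 16522 windows of coding genes. CCAAT was present in 64.5% against 38.7%, and TAATTA in 8.20% against 4.61%. GGGCGG, the core letters of the SP1 site, was present in 0 of 183 against 48.0%, and TGACGTCA, the cyclic AMP response element, in 0 against 2.43%. ATGCAAAT, the octamer, was present in 2.19% against 1.65%. The motif of the O/E (Ebf) factors was present in 0 against 0.981%, a share too low for 183 windows to set the family apart. These are counts of letters in one window and say nothing about binding. They were not matched for base composition, and windows of identical sequence were counted once for each member. For Vmn1r4 that window begins at chr6:56956263, in front of the coding exon. Its upstream start, the one with 42 CpG dinucleotides and the strong peak, was therefore not in the motif counts. Vmn1r4 was not the only such member. Vmn1r139 shares its RefSeq window with Vmn1r112 and Vmn1r157. Around its most upstream GENCODE start it held 49.7% G and C, against 35.7% in both of those genes. The motif windows are thus not always the promoters measured above.

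The nearest summit to a Vmn1r start was a median of 18.0 kb away in replicate 1 and 14.7 kb in replicate 2, and the mean of these medians was 16.4 kb ± 2.28 (SD, n = 2). Over all coding genes the medians were 11.96 kb and 4.02 kb. The other receptor families lay farther still, at 23.5 kb and 22.5 kb for Olfr and 21.7 kb and 19.6 kb for Vmn2r genes. For Taar genes the medians were 83.5 kb and 82.8 kb. Within 10 kb of a summit lay 59 members (28.2%) and 69 (33.0%), against 47.3% and 59.1% of all coding genes. Beyond 50 kb the order turned. There lay 20 members (9.57%) and 22 (10.5%), against 19.8% and 12.2%, so few Vmn1r genes lay in wide stretches without peaks. Vmn1r239-ps was farthest from any summit, at 123877 bp in replicate 1 and 165059 bp in replicate 2.

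With single-copy summits alone the distances grew. The median from a Vmn1r start to the nearest single-copy summit was 119 kb and 101 kb, against 23.7 kb and 7.95 kb over all coding genes. The summits that lay closest to Vmn1r genes were therefore mostly multi-copy over 50 bp.

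A cluster was taken as a run of members with neighbours up to 500 kb apart, from the first gene to the last. This gave 16 clusters, 4 of them with 1 member, and the 5 largest held 158 of the 209 genes. The largest, on chromosome 7, ran from Vmn1r91 to Vmn1r183 with 65 members (chr7:20099680-24063554). The next were Vmn1r188 to Vmn1r223 on chromosome 13 with 36 (chr13:22084440-23253906) and Vmn1r4 to Vmn1r31 on chromosome 6 with 28 (chr6:56924015-58475330). Vmn1r40 to Vmn1r54 on chromosome 6 held 15 (chr6:89707540-90271213), and Vmn1r224 to Vmn1r237 on chromosome 17 held 14 (chr17:20414146-21314912).

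The clusters themselves were not empty of peaks. Their 10.96 Mb held 384 summits in replicate 1 and 376 in replicate 2, which is 35.04 and 34.3 per Mb (mean 34.7 ± 0.516, SD, n = 2). Spread evenly along the same chromosomes, 23.9 and 26.6 per Mb would have fallen there, so the clusters held 1.47 and 1.29 times as many. The 11 members with peaks were spread over 5 of the 16 clusters.

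Between genes and inside genes the same clusters differed. The Vmn1r bodies made up 14.1% of the cluster sequence and held 1.82% of its summits in replicate 1 and 2.13% in replicate 2. That is 7 and 8 summits, where the rate of the clusters as a whole would give 54.0 and 52.9. With overlapping genes merged, the bodies held 4.54 and 5.19 summits per Mb and the rest of the clusters 40.0 and 39.1.

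**Figure D4:**
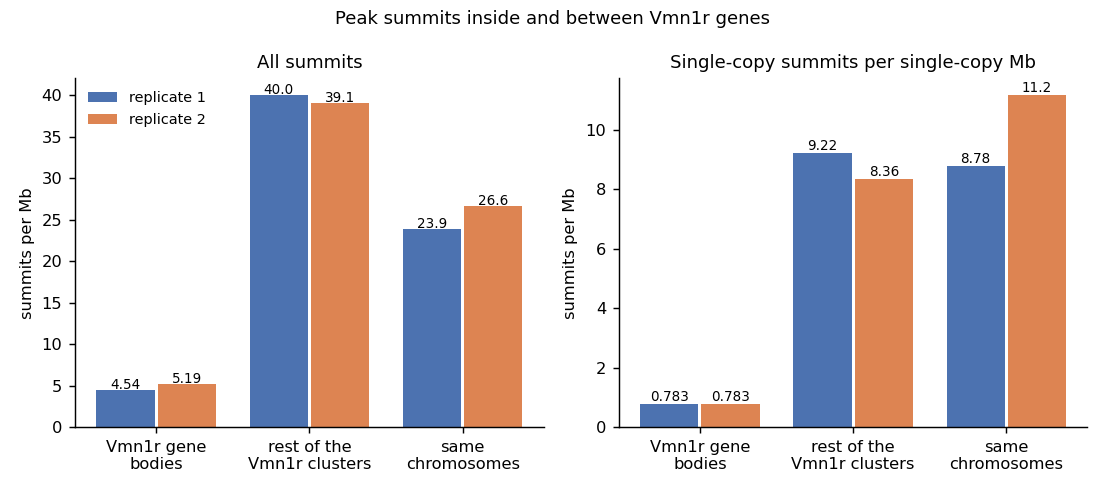
Bars give peak summits per Mb in Vmn1r gene bodies, in the rest of the Vmn1r clusters and on the chromosomes that carry them, for all summits (left, chromosome values weighted by cluster length) and for single-copy summits per Mb of single-copy sequence (right). Bodies lie lowest in both, at 4.54 and 5.19 against 40.0 and 39.1 on the left and at 0.783 against 9.22 and 8.36 on the right.

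Repeats differed between these parts of the clusters. Of the body sequence 34.6% was repeat-masked and 17.1% was multi-copy over 50 bp, against 59.0% and 50.5% of the rest. Counted over single-copy sequence alone, the bodies held 1 summit in each replicate, the Vmn1r4 peak, or 0.783 per single-copy Mb. The rest of the clusters held 43 and 39, or 9.22 and 8.36. The body value rests on 1 summit, the one that lies at the Nt5c3 start. The rest of the clusters includes promoters of other coding genes. Away from such promoters the clusters held 36 and 30 single-copy summits. The part that repeats had in the shortage inside Vmn1r genes was not tested.

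Most summits between genes were repeated over 50 bp. Of the cluster summits, 88.5% and 89.4% were multi-copy (mean 89.0% ± 0.580, SD, n = 2), against 66.9% and 61.1% of all summits, and 86.5% and 85.9% lay in repeat-masked bases, against 64.3% and 59.2%. Over 200 bp, 46.6% and 51.1% of the cluster summits were multi-copy. In sequence that is single-copy over 50 bp the clusters held 7.40 and 6.73 summits per Mb, against 8.78 and 11.2 on the chromosomes that carry members, so they lay below the chromosomes there. A peak of the other replicate overlapped 41.4% and 42.3% of the cluster peaks (mean 41.8% ± 0.623, SD, n = 2), against 58.8% and 51.4% of all peaks. The part that read placement in repeats had in the excess was not tested.

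The clusters varied among themselves. The chromosome 7 cluster of 65 members, where 82.4% of 50 bp windows were multi-copy, held 158 and 153 summits, with 5 and 4 of them single-copy. It had 40.4 and 39.1 summits per Mb against 27.0 and 30.1 over chromosome 7. The chromosome 13 cluster of 36 members held 23 and 20 summits, at 19.7 and 17.1 per Mb against 13.7 and 15.99 over its chromosome, and none of its members had a promoter peak or body summit. The chromosome 17 cluster held 40 and 43, at 44.4 and 47.7 per Mb against 30.9 and 32.8. The cluster from Vmn1r40 to Vmn1r54 held 16 and 12, at 28.4 and 21.3 per Mb against 17.7 and 20.2.

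**Figure D5:**
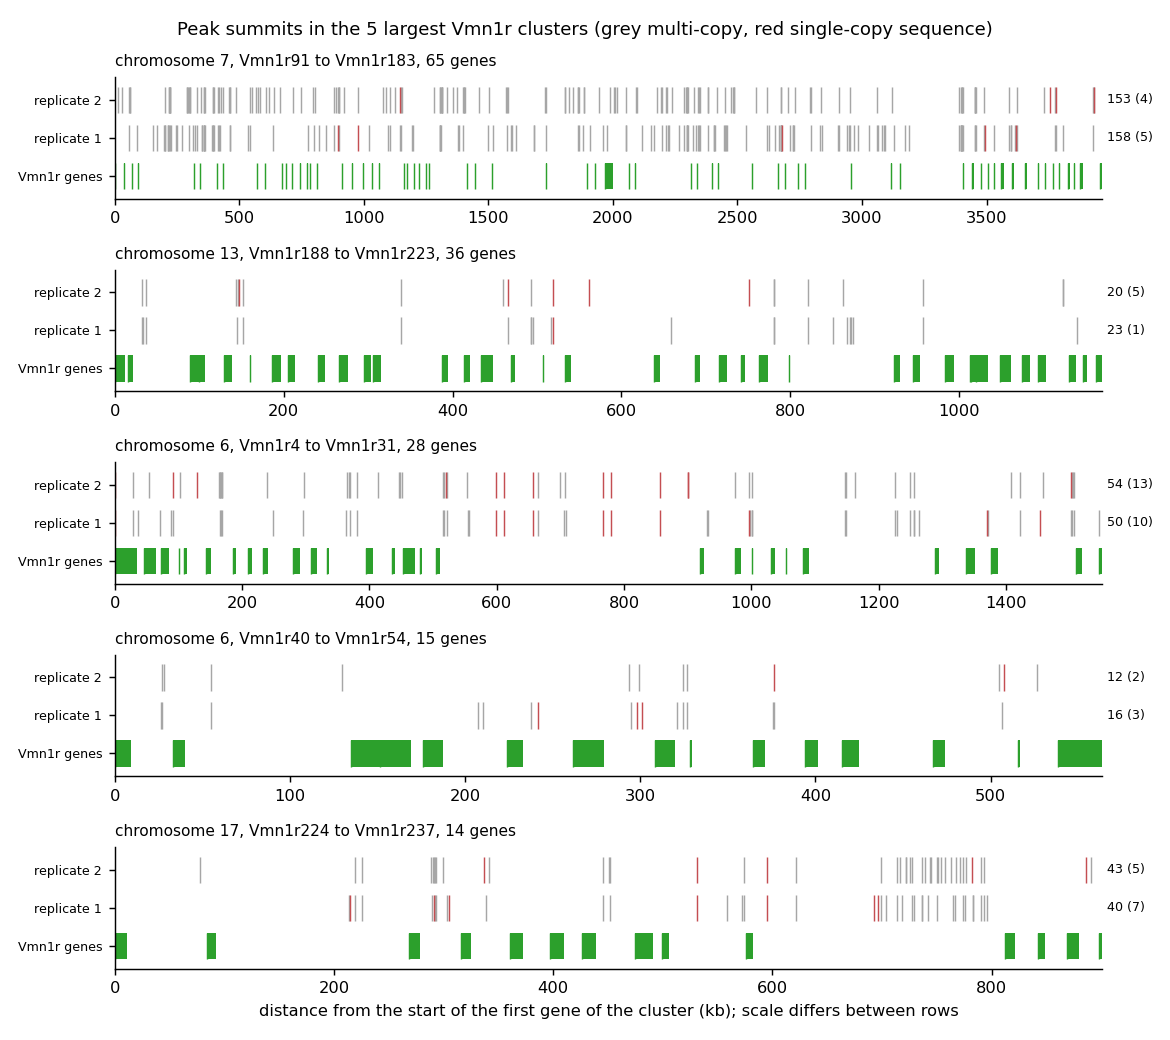
Each row maps 1 of the 5 largest clusters by distance from its first gene in kb, with Vmn1r genes in green and peak summits of both replicates as lines, grey where the 50 bp at the summit are multi-copy and red where they are single-copy. The numbers at the right give all summits and, in parentheses, the single-copy ones, from 158 (5) and 153 (4) in the chromosome 7 cluster to 16 (3) and 12 (2) in the cluster from Vmn1r40 to Vmn1r54. Most lines fall between the green genes.

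The median distance from a member to its nearest summit varied likewise. It was 13.5 kb and 12.02 kb in the chromosome 7 cluster of 65, 15.7 kb and 13.5 kb in the cluster from Vmn1r4, and 30.5 kb and 29.9 kb in the chromosome 13 cluster. Single members at the cluster edges spanned this range. Vmn1r31 was 2721 bp from a summit in replicate 1 and 41716 bp in replicate 2, while Vmn1r188 was 28456 bp and 29180 bp away.

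Strong peaks did occur inside the clusters, at coding genes that are not members. The clusters contained 59 other coding genes, of which 8 (13.6%) and 12 (20.3%) had a promoter peak. These shares lay below the 32.9% and 45.0% of all coding genes. Among the 59 are V1ra8 and V1rd19, which the rule left out although their symbols are of the V1R type. Ppp2r1a, the scaffold subunit of protein phosphatase 2A, lies in the chromosome 17 cluster and had the strongest, with 82 tags (−log10 q 81.5) in replicate 1 and 150 tags (179) in replicate 2. Ppm1k, a mitochondrial protein phosphatase gene in the cluster from Vmn1r4, had 54 tags (43.8) and 92 tags (90.5). The zinc finger gene Zik1 on chromosome 7 had 27 tags (13.8) and 48 tags (33.8).

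Away from the promoters of coding genes, 21 cluster peaks in replicate 1 and 38 in replicate 2 had a −log10 q of at least 10. The strongest of them, named after its values were seen, lay about 26 kb from Vmn1r77, at chr7:12010383-12010980 in replicate 1 and chr7:12010389-12010991 in replicate 2. It held 53 and 73 tags (42.5 and 64.5) at a single-copy summit in repeat-masked bases. A peak 3549 bp from a Vmn1r204 start in replicate 1 and 3560 bp from it in replicate 2 held 38 and 45 tags. Neither lies in a promoter or gene body of a member.

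The coding genes that flank the 5 largest clusters had promoter peaks more often than their Vmn1r neighbours. Of the 10 flanking genes, 6 had a promoter peak in replicate 1 and 7 in replicate 2, against 32.9% and 45.0% of all coding genes. The Nt5c3 peak among them is the one also counted for Vmn1r4. Nt5c3, Abcg2, Txnrd3, Hist1h2bj, Zfp677 and Zfp180 had one in both, and Zfp322a in replicate 2. The nearest to its cluster after Nt5c3 was Zfp180, 18.4 kb from the last gene. Nlrp9b, BC048671 and Vmn2r107 had none in either replicate.

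Genes that act with the receptors in vomeronasal neurons were examined as a list. Of 8 genes of V1R signalling and its neurons, 2 had a promoter peak in replicate 1 and 3 in replicate 2. The background for this and the later lists is the share over all coding genes, 32.9% and 45.0%. With 8 genes, these counts do not set the list apart from it. Gng8, the G protein gamma subunit of V1R neurons, had one of 18 tags in each replicate (−log10 q 6.22 and 5.51). Kcnj3, an inwardly rectifying potassium channel gene, had 20 and 29 tags (7.74 and 14.3), and Omp, the olfactory marker protein, had 14 tags (2.99) in replicate 2 alone. Gnai2, the channel gene Trpc2, the chloride channel genes Ano1 and Ano2 and the potassium channel gene Kcnn3 had none. The Trpc2 start was 17.8 kb and 17.7 kb from the nearest summit.

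Among the transcription factor genes of vomeronasal neuron development, Lhx2 was open at its promoter in both replicates, with 25 and 40 tags (11.95 and 25.1). Neurog1, Neurod1, Ebf1, Emx2, Bcl11b, Meis2 and Tfap2e had none. Lhx2, a LIM homeobox gene, also acts in tissues other than the nose. Of the pair used by basal vomeronasal neurons, B2m, which encodes the widely expressed beta-2 microglobulin, had 20 and 29 tags and Gnao1 had none. The 6 genes of main olfactory signalling (Gnal, Adcy3, Cnga2, Cnga4, Rtp1 and Rtp2) had none in either replicate.

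The gonadotrope label was checked in the same way. Among the gonadotrope markers, Lhb, the beta subunit of LH, had a promoter peak of 49 and 70 tags in the replicates, Cga, the common alpha subunit, 25 and 50, and Gnrhr, the GnRH receptor, 22 and 33. Nr5a1 also had one in both, and Foxl2 in replicate 2. Fshb and Pitx1 had none. Of 5 markers of other pituitary lineages (Prl, Gh, Pomc, Tshb and Pou1f1), 0 had one in either replicate.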

How the data were processed

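ATAC-seq peaks were available for 2 replicate samples of 1 condition. Per the study's methods, reads were mapped to GRCm38 (mm10) with Bowtie2, duplicates were removed and peaks were called per sample with MACS2, with an extension of 200 bp and the genome size preset of the fruit fly. That preset enters the background to which each peak was compared. Reads were paired-end and 50 bp long. The handling of reads that fit several places, the tool versions and the reads behind each peak list are not given in the sources used here. The deposited lists give for each peak a score, a fold enrichment over background and −log10 p and q values, all made by the authors' peak caller. Fold values were (tags + 1) over (background + 1), which gave whole tags at each summit and a background of 3.05 and 3.54 tags. The lists held 58519 and 64984 peaks, of which 57978 and 64465 on chromosomes were used.

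Genes and starts were taken from GENCODE vM21, and summits as column 2 plus column 10. Copy number was counted over the primary GRCm38 assembly for 50 bp at each summit, at every 10 bp of the clusters and every 50 bp of the promoters, and repeat-masked bases are the lower-case bases of that assembly. Base composition and CpG content were read from that assembly at the most upstream GENCODE start, and shared promoters and motifs from RefSeq promoter sequences (GRCm38.p6). In place of random placement, the number of summits that even spacing along each chromosome would give was computed. The comparison of gene bodies with the rest of the clusters was added after the data were seen. Counting was tested on simulated peaks and sequences. With 1 condition, no test was run, and values are given per replicate and as mean ± SD (n = 2). Python 3.11.15 was used with numpy 2.4.6, pandas 2.3.3 and numba 0.67.0.

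Members named are those with a promoter peak or body summit in both replicates (up to 20) or in 1 (up to 15), the first and last of the 5 largest clusters and the one farthest from a summit, beside fixed lists of vomeronasal, olfactory and pituitary genes and the genes flanking the clusters. Some genes of these lists are not reported here. The members and lists were chosen with earlier results of these data known. Alternatives were other promoter widths, summit in place of overlap, −log10 q of at least 10, single-copy summits, RefSeq starts, other cluster gaps, 200 bp copy number, 50% overlap and each replicate left out.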

Additional observations from a re-analysis of the deposited data

How the results depend on the processing

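Of 25 alternatives other than leaving out a replicate, 10 stayed within the spread between replicates and 15 moved. Values here are means of the replicates. The share of Vmn1r genes with a promoter peak was 2.87% with promoters of 2 kb on either side and 17.2% with 5 kb, against 40.7% and 45.9% of all coding genes. At a −log10 q of at least 10 it was 0.478%, and the share of all coding genes fell to 19.4%. With −log10 q of at least 10, and likewise with single-copy summits alone, the share of Vmn1r genes with a body summit was 0.478%, which is Vmn1r4. Summits per Mb of cluster were 31.7 with members up to 100 kb apart, 36.7 with up to 1 Mb, 3.38 at a −log10 q of at least 10 and 3.83 for single-copy summits. The multi-copy share of cluster summits was 48.8% over 200 bp and 87.5% with the 100 kb gap. The share of cluster peaks found in both replicates was 26.6% with an overlap of at least 50% of both peaks and 51.5% for single-copy summits. The median distance from a Vmn1r start to the nearest summit was 115 kb at a −log10 q of at least 10 and 110 kb for single-copy summits. The cause of these moves was not tested beyond the fewer peaks that the stricter settings leave. Leaving out replicate 1 gave 1.91% of members with a promoter peak, and leaving out replicate 2 gave 0.478%. A gene without a peak may be accessible below the 10 or 11 tags at which the weakest peaks were called. In multi-copy sequence the absence of a peak also depends on how reads were placed, which is not given. Summits per single-copy Mb in gene bodies rest on 1 peak.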
